A study of Mus musculus with 18 samples.

Results

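The 10 genes described here are Pdgfra, Cd34, Ly6a, Dpt, Dcn, Dpp4, Pi16, Anxa3, Icam1 and F3, which mark progenitor cells and fibroblasts of white fat. They were chosen with earlier results of these data known and were matched by name. All 10 were found among the 24091 gene symbols of the epididymal fat (eWAT) table and among the 51826 entries of the inguinal fat (iWAT) table. Gene positions given below are those of the eWAT table, on the mouse build GRCm38 (mm10) named in the submitters' processing notes. Levels were followed through 18 RNA-seq libraries in 6 groups of 3.

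All groups were C57BL/6 mice, and the labels give neither age nor sex. Control mice had a fixed 12-h light and 12-h dark cycle. Shiftwork mice had that cycle for 4 days of each week and the reversed cycle for the other 3 days, over 24 weeks. Visceral eWAT was sampled at ZT3 and at ZT12 in both schedules, where ZT counts hours from lights-on of the regular cycle, and subcutaneous iWAT at ZT3 only. The 6 groups are therefore eWAT ZT3 control, eWAT ZT3 shiftwork, eWAT ZT12 control, eWAT ZT12 shiftwork, iWAT ZT3 control and iWAT ZT3 shiftwork. Each sample description carries a number that is not repeated within a depot, but the labels do not say that these numbers name animals, so the p-values measure the spread between these samples, which may be technical. The iWAT samples, labelled ZT3, share 4 of their numbers with eWAT samples labelled ZT12, and whether those samples came from the same mice is not stated.

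White fat keeps a pool of stromal cells from which new adipocytes form. In mice these cells are usually isolated by the surface proteins PDGFRA, CD34 and SCA-1 (the product of Ly6a), and they deposit much of the matrix of the tissue. Single-cell work on mouse fat has divided them into DPP4-positive interstitial progenitors that also express Pi16 and Anxa3, ICAM1-positive committed preadipocytes, and a CD142-positive (F3) population reported to restrain adipocyte formation. Cd34, Ly6a and Icam1 are also expressed by endothelial cells, and Icam1 by leukocytes. In bulk tissue, fewer cells of a type and less RNA per cell cannot be told apart.

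RefSeq held the start regions of 7 of the 10 genes. Those of Cd34, Icam1 and F3 are shown because Cd34 gave the smallest unadjusted p-value of the 10 genes in each of the 5 comparisons of 2 groups, and Icam1 and F3 mark cell states set apart from the interstitial one. Each window is the 250 bases before the RefSeq start in GRCm38.p6, read 5′ to 3′ on the strand of the gene, which is the plus strand for all 3 genes. The windows are chr1:194938571-194938820 for Cd34, chr9:21015690-21015939 for Icam1 and chr3:121723287-121723536 for F3. Capitals mark matches to the searched motifs.
Cd34: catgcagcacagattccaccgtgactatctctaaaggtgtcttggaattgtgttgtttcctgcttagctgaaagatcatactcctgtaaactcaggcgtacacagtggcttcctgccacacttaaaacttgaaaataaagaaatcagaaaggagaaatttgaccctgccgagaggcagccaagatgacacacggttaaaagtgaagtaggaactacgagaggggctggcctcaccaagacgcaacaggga
Icam1: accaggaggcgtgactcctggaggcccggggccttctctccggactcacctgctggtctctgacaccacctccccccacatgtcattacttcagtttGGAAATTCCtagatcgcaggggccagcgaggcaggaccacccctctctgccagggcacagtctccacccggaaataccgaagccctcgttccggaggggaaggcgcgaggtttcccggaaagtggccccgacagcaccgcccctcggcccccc
F3: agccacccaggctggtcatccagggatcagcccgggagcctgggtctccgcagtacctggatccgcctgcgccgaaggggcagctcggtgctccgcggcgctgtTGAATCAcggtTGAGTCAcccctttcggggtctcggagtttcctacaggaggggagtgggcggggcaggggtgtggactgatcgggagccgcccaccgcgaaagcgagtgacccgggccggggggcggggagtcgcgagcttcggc
The motifs searched on both strands were the E-box CACGTG, the D-box TTATGTAA or TTACGTAA, the cyclic AMP element TGACGTCA, the AP-1 element TGANTCA, the NF-kB element as GGAAATTCC or in its longer consensus form, the EGR element GCGTGGGCG and the TATA element TATAAA. The Icam1 window held 1 NF-kB match, GGAAATTCC, from base -153 to -145 before the start, and 0.557 percent of 32851 such windows held an NF-kB match. The F3 window held 2 AP-1 matches, TGAATCA from -146 to -140 and TGAGTCA from -135 to -129, and 6.75 percent of windows held at least 1. None of the searched motifs was found in the Cd34 window, nor in those of Pdgfra, Dpt and Pi16. The Dpp4 window held 1 TATA match, from -227 to -222, and 12.4 percent of windows held at least 1. A match describes the letters only.

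Assigned reads were 20352008 to 72276733 for the eWAT libraries and 28544338 to 55639501 for those of iWAT, and the 10 genes had 296 to 58685 reads each per library. Levels are given in CPM, the reads of a gene per 1000000 assigned reads of its library. All 8 adipocyte markers were above 1 CPM in every library, and the 6 mesothelial markers, which line visceral fat, summed to 34.8 to 388 CPM in eWAT and to 1.75 to 5.81 CPM in iWAT. Some libraries carried transcripts of other tissues, and intestine markers summed to 164 CPM in eWAT ZT12 shiftwork replicate 2 against at most 41.2 CPM in the other eWAT libraries. Vas deferens markers summed to 14892 and 14719 CPM in replicates 1 and 3 of eWAT ZT3 control against at most 16.3 in the other eWAT libraries. Spermatid markers summed to 6517 CPM in eWAT ZT3 shiftwork replicate 3, skeletal muscle markers to 43151 CPM in iWAT shiftwork replicate 1, and B cell and lymph node markers to 1083 and 1810 CPM in iWAT control replicates 1 and 2. The part of these transcripts in the differences between groups was not tested beyond leaving the libraries out.

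None of the 10 genes passed an adjusted p of 0.05 in any of the 6 comparisons. In eWAT this was edgeR's quasi-likelihood test with Benjamini-Hochberg adjustment over 15141 genes, and in iWAT limma on log2(value + 1) over 16159 genes. At an unadjusted p under 0.05 there was 1 of the 10 genes for shiftwork at ZT3, 1 for shiftwork at ZT12, 3 for ZT12 against ZT3 in controls, 2 for the same under shiftwork, 0 for the interaction of schedule and time, and 1 for shiftwork in iWAT. Over all genes tested, the shares at that unadjusted p were, in the same order, 18.8, 2.34, 22.4, 16.3, 10.1 and 6.64 percent. Of all genes tested, 0 percent were called in each of these comparisons except ZT12 against ZT3 in controls, where 3.69 percent were called. DESeq2 called 2 of the 10 genes, Cd34 and Ly6a, both in ZT12 against ZT3 in controls, where it called 14.3 percent of all genes. The shiftwork comparison at ZT3 and the time comparison in controls share the 3 eWAT ZT3 control libraries. In simulated data, 18 percent of genes changed by 2 times were called for time in controls and 2 percent in iWAT. The changed genes were drawn at random from all genes tested, so these shares need not hold for the 10 genes. A gene that was not called may therefore still differ.

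**Figure D1:**
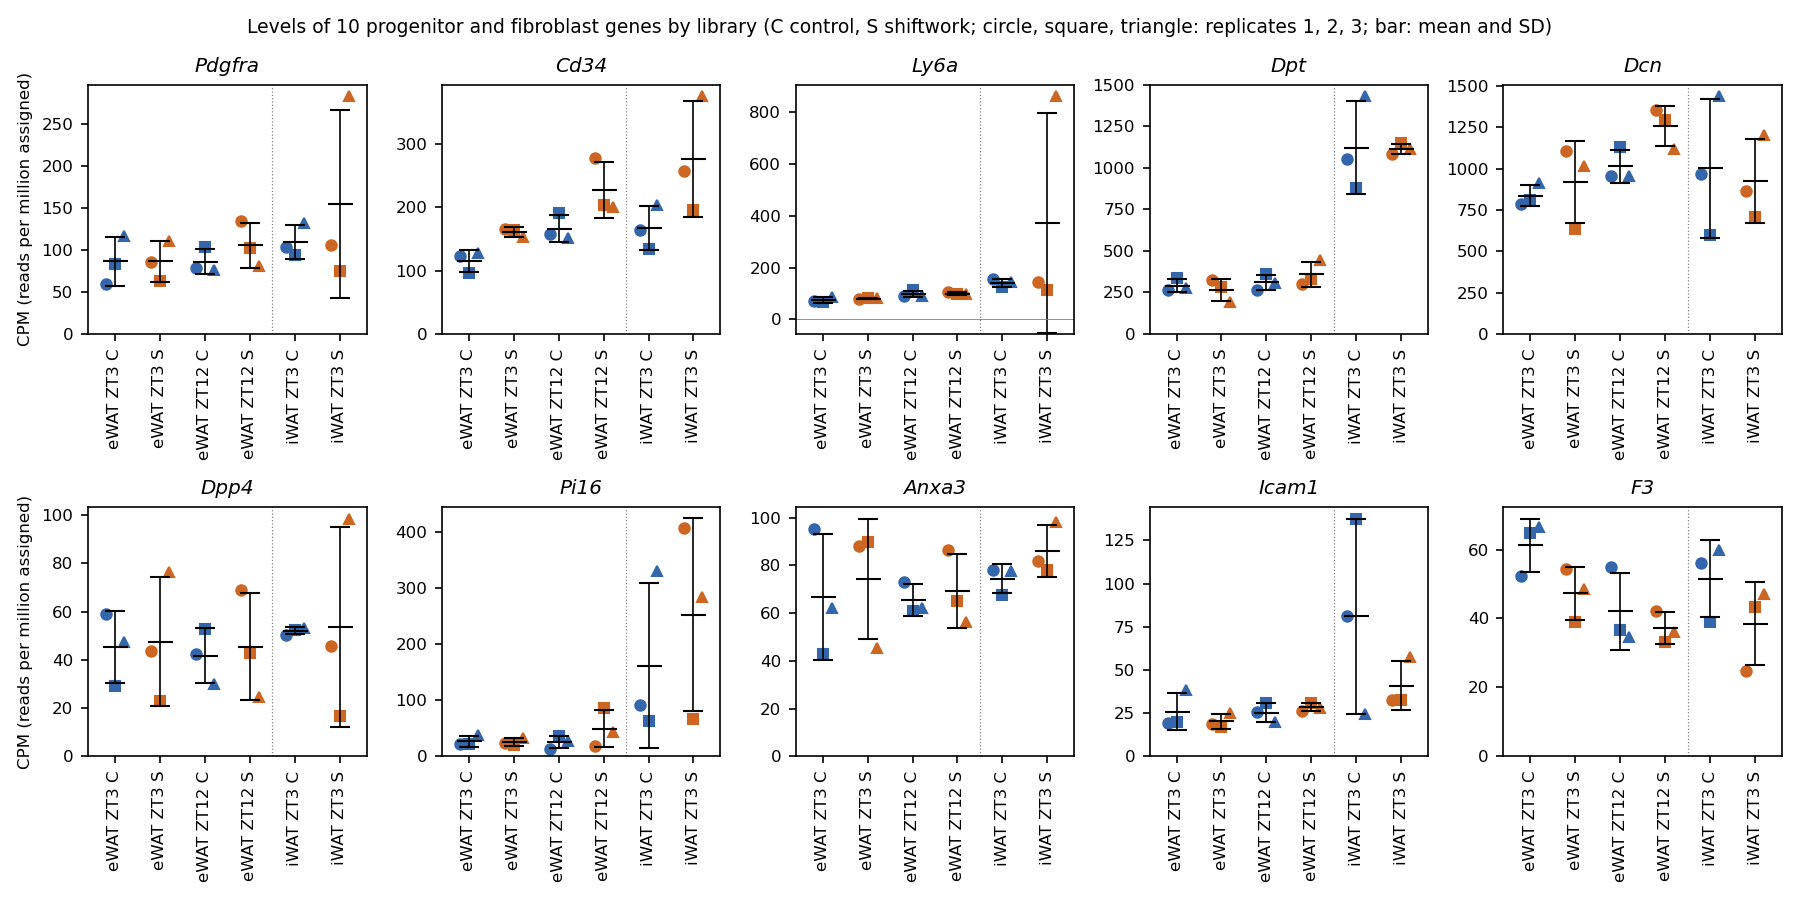
Level of each of the 10 genes in CPM (y axis, linear) in the 6 groups (x axis), with 1 point per library and bars for the mean and SD of 3 libraries. Cd34 was lowest in eWAT ZT3 control (95.9 to 127.9 CPM), Dpt was higher in all 6 iWAT libraries (880 to 1431 CPM) than in all 12 eWAT libraries (195 to 447 CPM), and Ly6a reached 861 CPM in 1 iWAT shiftwork library, where the SD bar extends below 0.

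Cd34 (chr1:194938821-194961292, plus strand) encodes a sialomucin on the surface of progenitors and endothelial cells. Its level was 123.2, 95.9 and 127.9 CPM in the 3 eWAT ZT3 control libraries and 166.0, 164.6 and 152.4 CPM in the 3 ZT3 shiftwork libraries. At ZT12 it was 157.4, 190.8 and 150.6 CPM in controls and 278.3, 202.6 and 200.3 CPM under shiftwork. Both shiftwork groups lay wholly above the control group of the same time, and both ZT12 groups lay wholly above the ZT3 group of the same schedule, the closest values being 127.9 and 150.6 CPM in controls and 166.0 and 200.3 CPM under shiftwork. For shiftwork against control the log2 difference was 0.50 ± 0.16 (SE) at ZT3, with an adjusted p of 0.214 by edgeR, and 0.40 ± 0.16 at ZT12, with an adjusted p of 1. For ZT12 against ZT3 it was 0.57 ± 0.16 in controls, with an adjusted p of 0.0713 by edgeR, and 0.48 ± 0.16 under shiftwork, with an adjusted p of 0.280. The interaction of schedule and time was -0.09 ± 0.22 with an adjusted p of 0.896 by edgeR. DESeq2 gave 0.54 for ZT12 against ZT3 in controls with an adjusted p of 0.00894, and edgeR without eWAT ZT3 shiftwork replicate 3 gave an adjusted p of 0.0233, where 17.8 percent of all genes were called. Over every setting run for that comparison the adjusted p of Cd34 ran from 0.00894 to 0.217. Endothelial markers summed to 1029 to 1194 CPM in ZT3 control, 880 to 1485 in ZT3 shiftwork, 1163 to 1485 in ZT12 control and 1030 to 1786 in ZT12 shiftwork. In ZT3 shiftwork the 3 libraries had the same order by Cd34 and by the endothelial sum. In ZT12 shiftwork the library with the most Cd34, replicate 1, had the lowest endothelial sum, 1030 CPM, and the highest macrophage sum, 2474 CPM. The part of endothelial cells in the levels of Cd34 was not tested.

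In iWAT, Cd34 was 164.3, 134.8 and 204.1 CPM in controls and 257.2, 195.8 and 374.7 CPM under shiftwork, so that the groups overlapped between 195.8 and 204.1 CPM. The difference was 0.83 ± 0.33 on the log2 scale, with an unadjusted p of 0.0424 and an adjusted p of 0.690 by limma. It was 0.60 without shiftwork replicate 3 and 0.33 without the 3 libraries that held lymph node or skeletal muscle transcripts. The authors' deposited table gives 0.80 for the same comparison with an adjusted p of 0.456.

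Ly6a (chr15:74994877-74998031, minus strand) encodes SCA-1, a lipid-anchored surface protein, and is a gene that interferons induce in several mouse cell types. In eWAT it varied least of the 10 genes, by 1.71 times from the lowest to the highest of 12 libraries. It was 70.1, 65.5 and 88.4 CPM in ZT3 control and 77.2, 81.9 and 82.7 CPM in ZT3 shiftwork, which overlapped. At ZT12 it was 89.8, 111.8 and 91.4 CPM in controls and 105.6, 96.6 and 96.6 CPM under shiftwork, so both ZT12 groups lay above the ZT3 group of their schedule and the schedules overlapped at each time. ZT12 against ZT3 gave 0.43 ± 0.13 in controls (adjusted p of 0.0918 by edgeR) and 0.30 ± 0.13 under shiftwork (adjusted p of 0.303). The DESeq2 value in controls was 0.40 with an adjusted p of 0.0229, and edgeR without eWAT ZT3 shiftwork replicate 3 gave 0.41 with an adjusted p of 0.0387. Over all settings run the adjusted p in controls ran from 0.0229 to 0.266. Shiftwork against control gave 0.11 ± 0.13 at ZT3 and -0.02 ± 0.13 at ZT12. Macrophage markers also separated the times, with sums of 507 to 894 CPM in the 6 ZT3 libraries of eWAT and 984 to 2474 CPM in the 6 ZT12 libraries, and the summed level of 11 interferon response genes, a list chosen after seeing the data, was 179 to 252 CPM at ZT3 and 287 to 439 CPM at ZT12. Their part in the levels of Ly6a and Cd34 was not tested.

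Pdgfra (chr5:75152291-75198204, plus strand) encodes the receptor for platelet-derived growth factors that defines most fat fibroblasts. In eWAT it was 58.9, 82.7 and 116.8 CPM in ZT3 control, 85.7, 62.4 and 110.5 CPM in ZT3 shiftwork, 78.9, 103.5 and 75.9 CPM in ZT12 control, and 133.8, 101.8 and 81.0 CPM in ZT12 shiftwork. These 4 groups overlapped, and the mean was 86.2 ± 29.1 CPM (SD, n = 3) in ZT3 control and 86.2 ± 24.0 CPM in ZT3 shiftwork. The difference for shiftwork was -0.03 ± 0.28 on the log2 scale at ZT3 and 0.24 ± 0.28 at ZT12.

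Dcn (chr10:97479500-97518163, plus strand) encodes decorin, a small proteoglycan that binds collagen, and gave the most reads of the 10 genes in every eWAT library. It was 789, 813 and 911 CPM in ZT3 control, 1108, 636 and 1016 CPM in ZT3 shiftwork, 956, 1131 and 954 CPM in ZT12 control, and 1355, 1295 and 1122 CPM in ZT12 shiftwork. The ZT12 controls lay above the ZT3 controls, with a difference of 0.31 ± 0.21 on the log2 scale and an adjusted p of 0.422 by edgeR. Under shiftwork ZT12 against ZT3 gave 0.45 ± 0.21 with an adjusted p of 0.312, and shiftwork against control gave 0.13 ± 0.21 at ZT3 and 0.26 ± 0.21 at ZT12. In iWAT, Dcn ran from 600 to 1438 CPM in controls and from 709 to 1204 CPM under shiftwork, which overlapped.

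Dpt (chr1:164796732-164824266, plus strand) encodes dermatopontin, a small matrix protein shared by fibroblasts of many tissues. In eWAT it was 262, 337 and 275 CPM in ZT3 control, 325, 283 and 195 CPM in ZT3 shiftwork, 266, 359 and 306 CPM in ZT12 control, and 303, 330 and 447 CPM in ZT12 shiftwork, with overlap between the groups of every comparison. In iWAT it was 1055, 880 and 1431 CPM in controls and 1085, 1148 and 1113 CPM under shiftwork. The 3 shiftwork libraries of iWAT lay inside the range of the controls. The shiftwork difference was -0.11 ± 0.27 in eWAT at ZT3, 0.17 ± 0.27 in eWAT at ZT12 and 0.17 ± 0.29 in iWAT, all on the log2 scale.

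Dpp4 (chr2:62330073-62412231, minus strand) encodes a membrane peptidase that marks the interstitial progenitors. In eWAT it was 58.9, 29.3 and 47.4 CPM in ZT3 control, 43.6, 22.8 and 76.2 CPM in ZT3 shiftwork, 42.4, 52.6 and 29.8 CPM in ZT12 control, and 68.9, 42.8 and 24.7 CPM in ZT12 shiftwork. The spread within each shiftwork group was wider than any difference between group means, which ran only from 41.6 to 47.6 CPM. The log2 differences for shiftwork were 0.06 ± 0.43 at ZT3 and 0.07 ± 0.43 at ZT12. Its 2 lowest libraries, ZT3 shiftwork replicate 2 and ZT12 shiftwork replicate 3, had mesothelial sums of 34.8 and 52.1 CPM, and its 2 highest, ZT3 shiftwork replicate 3 and ZT12 shiftwork replicate 1, had 162 and 388 CPM. The library with the next lowest level, ZT3 control replicate 2, had a sum of 109 CPM. The part of mesothelial cells in these levels was not tested.

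**Figure D2:**
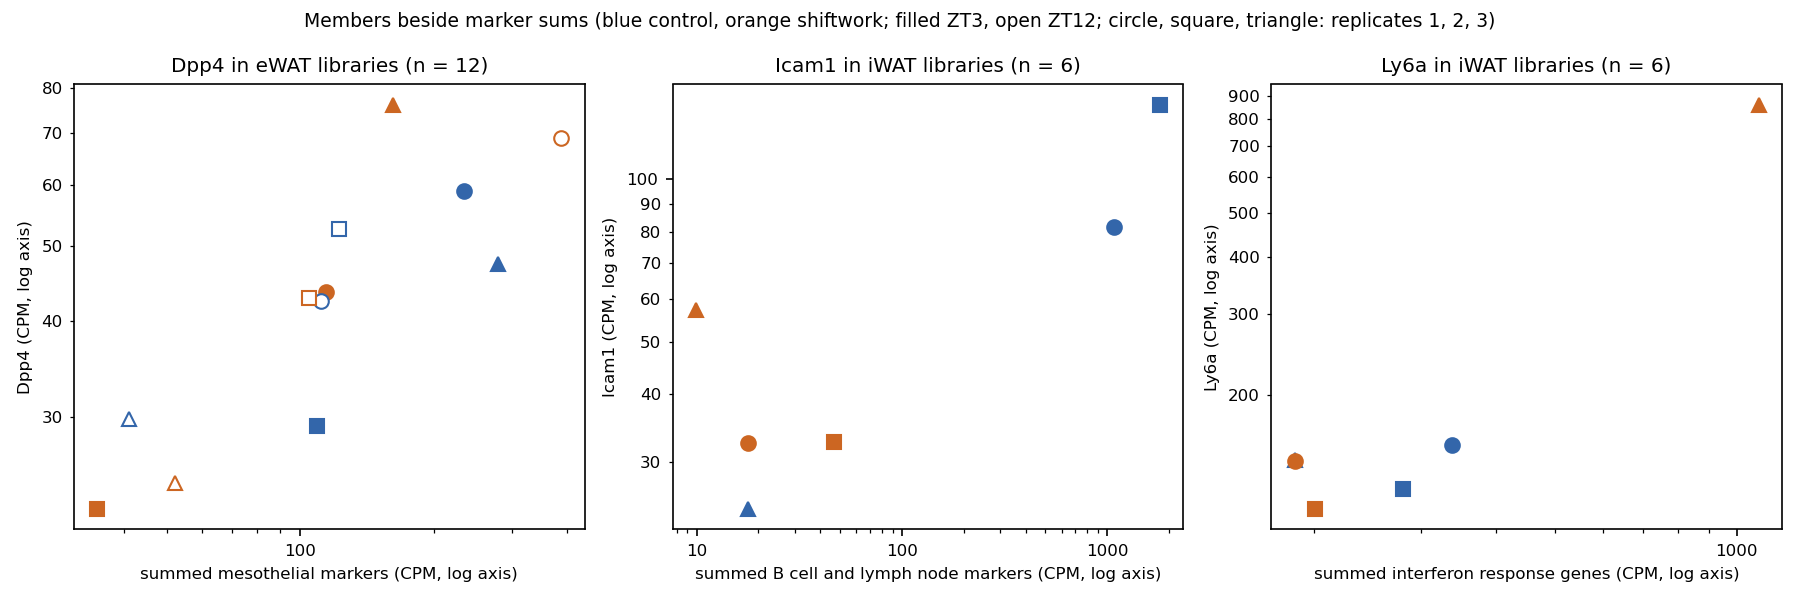
Level of 1 gene per panel (y axis, CPM, log scale) against the summed level of a marker list in the same library (x axis, CPM, log scale), with 1 point per library, for Dpp4 in 12 eWAT libraries and for Icam1 and Ly6a in 6 iWAT libraries. The 2 highest Icam1 values (81.5 and 137.5 CPM) lie at the highest lymph node marker sums (1083 and 1810 CPM), the highest Ly6a value (861 CPM) lies at the highest interferon sum (1087 CPM), and the point of iWAT control replicate 3 is nearly hidden in the Ly6a panel by that of shiftwork replicate 1.

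Pi16 (chr17:29318882-29329099, plus strand) encodes a secreted peptidase inhibitor found in interstitial progenitors. In eWAT it was 21.003, 21.3 and 38.03 CPM in ZT3 control, 23.1, 19.9 and 33.1 CPM in ZT3 shiftwork, 13.6, 35.4 and 26.5 CPM in ZT12 control, and 18.7, 85.5 and 43.8 CPM in ZT12 shiftwork. Only replicates 2 and 3 of ZT12 shiftwork exceeded all other eWAT libraries, and replicate 1 lay within their range. Replicate 2, the highest, is the library with an intestine sum of 164 CPM, and its epithelial markers summed to 44.9 CPM against 15.4 and 3.04 CPM in replicates 1 and 3. Epithelial sums were higher, at 167, 160 and 175 CPM, in ZT3 control replicates 1 and 3 and ZT3 shiftwork replicate 3. Pi16 was 21.003, 38.03 and 33.1 CPM in those libraries. The part of intestine and epithelial transcripts in the level of Pi16 was not tested beyond leaving libraries out. Shiftwork against control at ZT12 gave 0.94 ± 0.52 on the log2 scale with an adjusted p of 1 by edgeR, and leaving out 1 library at a time moved it between 0.28, without ZT12 shiftwork replicate 2, and 1.33, without ZT12 shiftwork replicate 1. In iWAT it was 91.3, 62.3 and 330.7 CPM in controls and 406.2, 66.5 and 284.1 CPM under shiftwork, a spread of 6.52 times over 6 libraries, with overlapping groups and a log2 difference of 0.82 ± 0.94 by limma. That difference ran from 0.25 to 1.65 with 1 library left out and was -1.35 without the 3 libraries holding lymph node or skeletal muscle transcripts. Pi16 and Dpp4 did not have the same order of libraries in iWAT: Dpp4 was 50.4, 52.5 and 53.2 CPM in controls and 45.7, 16.7 and 98.5 CPM under shiftwork.

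Anxa3 (chr5:96793385-96845968, plus strand) encodes an annexin, a calcium-dependent membrane-binding protein. It ran from 43.0 to 95.2 CPM over the 12 eWAT libraries, with overlap between the groups of every comparison. In eWAT the log2 difference for shiftwork was 0.22 ± 0.32 at ZT3 and 0.03 ± 0.32 at ZT12. For ZT12 against ZT3 it was 0.05 ± 0.32 in controls and -0.14 ± 0.32 under shiftwork. The ZT3 shiftwork difference ran from 0.017 to 0.515 with 1 library left out. Without the 3 ZT3 libraries with vas deferens or spermatid transcripts, which leaves 1 ZT3 control, it was 0.97, the highest of the 10 genes. Over the 6 iWAT libraries Anxa3 ran from 67.6 to 98.3 CPM. In iWAT it was 78.2, 67.6 and 77.7 CPM in controls and 81.7, 77.9 and 98.3 CPM under shiftwork, a log2 difference of 0.35 ± 0.18 with an adjusted p of 0.690 by limma. The lowest shiftwork value lay just under the highest control value.

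Icam1 (chr9:21015960-21028796, plus strand) encodes an adhesion receptor used by leukocytes and marks committed preadipocytes. In eWAT it was 19.4, 19.8 and 38.3 CPM in ZT3 control, 18.7, 16.9 and 25.3 CPM in ZT3 shiftwork, 25.5, 30.8 and 19.6 CPM in ZT12 control, and 26.2, 31.0 and 27.8 CPM in ZT12 shiftwork. Under shiftwork the ZT12 libraries lay above the ZT3 libraries, with a log2 difference of 0.49 ± 0.27 and an adjusted p of 0.383 by edgeR. In controls the times overlapped, with 0.01 ± 0.27, and the interaction was 0.48 ± 0.38 with an adjusted p of 0.634. In iWAT it was 81.5, 137.5 and 24.6 CPM in controls and 32.6, 32.7 and 57.4 CPM under shiftwork. The 2 high controls were the libraries with B cell and lymph node sums of 1083 and 1810 CPM, against 9.91 to 46.5 CPM in the other 4 iWAT libraries, and the third control was the lowest of the 6 libraries. The iWAT difference was -0.58 ± 0.58 by limma with an adjusted p of 0.765, and without the 3 libraries holding lymph node or skeletal muscle transcripts it was 0.73, in the opposite direction.

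F3 (chr3:121723537-121735052, plus strand) encodes tissue factor (CD142), the cell-surface starter of blood clotting. In eWAT it was 52.3, 64.8 and 66.5 CPM in ZT3 control, 54.3, 38.99 and 48.5 CPM in ZT3 shiftwork, 55.0, 36.7 and 34.6 CPM in ZT12 control, and 42.2, 33.0 and 36.2 CPM in ZT12 shiftwork. ZT3 controls were at the high end, and overlapped with both ZT3 shiftwork and ZT12 control through 1 library each. ZT12 against ZT3 in controls gave -0.51 ± 0.22 on the log2 scale with an unadjusted p of 0.0441 and an adjusted p of 0.208 by edgeR, and under shiftwork it gave -0.36 ± 0.22 with an adjusted p of 0.444. Shiftwork against control gave -0.38 ± 0.22 at ZT3 and -0.23 ± 0.22 at ZT12. The iWAT values were 56.1, 38.9 and 59.7 CPM in controls and 24.8, 43.4 and 47.2 CPM under shiftwork, which overlapped, with a log2 difference of -0.31 ± 0.30 by limma.

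**Figure D3:**
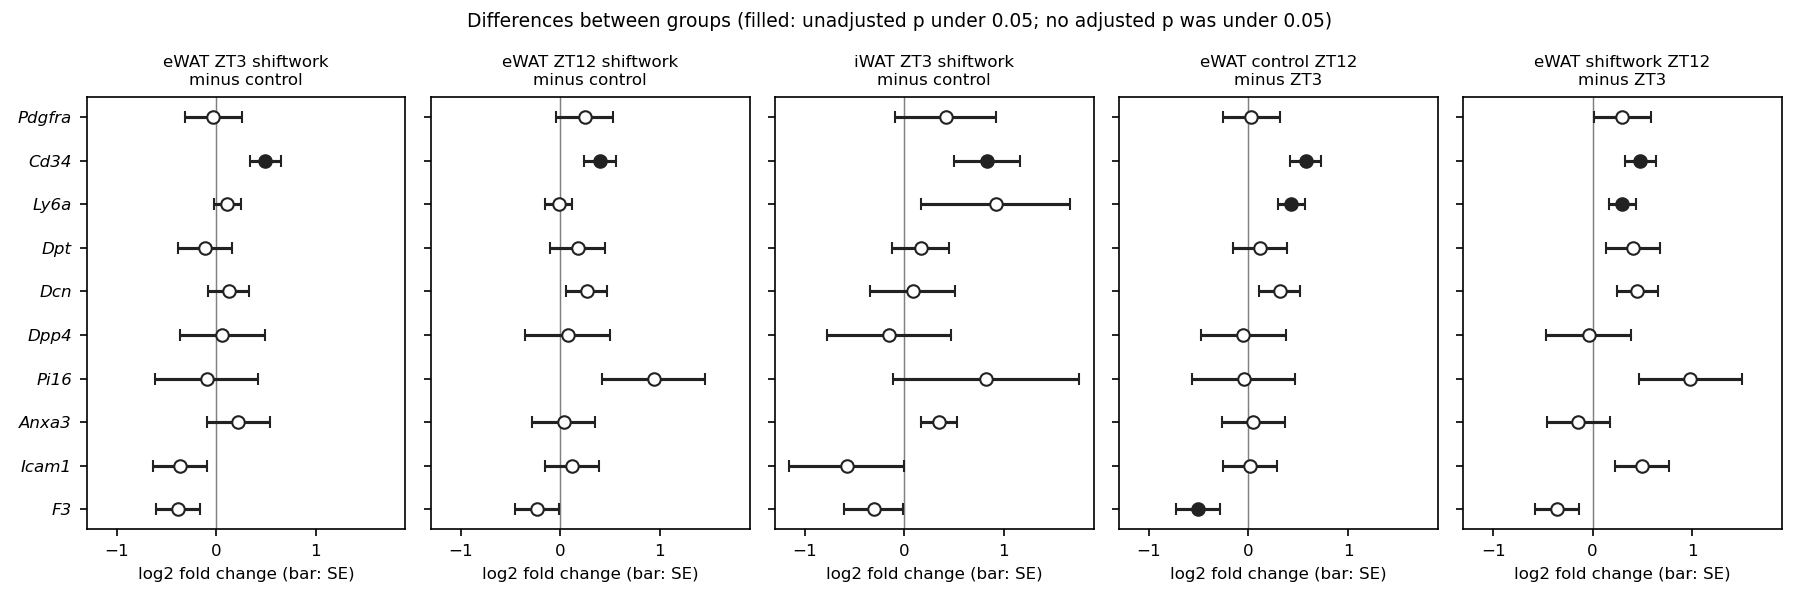
Log2 difference (x axis) of each of the 10 genes (y axis) in 5 comparisons, with bars for the SE and filled points for an unadjusted p under 0.05. Cd34 is filled in all 5 panels, between 0.40 and 0.83, Ly6a is filled in both time comparisons and F3 in the time comparison in controls, and no adjusted p was under 0.05 in edgeR or limma.

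Groups were also compared by whether their 3 libraries overlapped after scaling, by TMM (the scaling factors of edgeR) in eWAT and by the deposited size factors in iWAT. For shiftwork at ZT3, 1 of the 10 genes did not overlap (Cd34, higher), where 12.0 percent of all genes did not and 7.64 percent were higher without overlap. For shiftwork at ZT12 it was again 1 of 10 (Cd34, higher), against 12.5 percent of all genes, 5.91 percent being higher. For ZT12 against ZT3 in controls it was 3 of 10 (Cd34, Ly6a and Dcn, all higher), against 32.9 percent of all genes, 19.3 percent being higher. Under shiftwork it was 4 of 10 (Cd34, Ly6a and Icam1 higher, F3 lower), against 16.6 percent of all genes, 9.05 percent being higher and 7.59 percent lower. In iWAT it was 0 of 10, against 12.9 percent. In unscaled CPM, the values printed above, the time comparison under shiftwork also gave 4 of 10, but they were Cd34, Ly6a, Icam1 and Dcn, all higher, against 15.8 percent of all genes, and F3 overlapped. The other 3 eWAT comparisons gave the same genes in unscaled CPM. Apart from the time comparison under shiftwork, the counts were near or under the shares over all genes.

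The median log2 difference over the 10 genes was 0.02 for shiftwork at ZT3 and 0.15 at ZT12, beside 0.06 and -0.0043 over all genes. For ZT12 against ZT3 it was 0.04 in controls and 0.35 under shiftwork, beside -0.01 and -0.03 over all genes. In iWAT it was 0.26 beside 0.02. The median of the 10 genes changed sign with the libraries used for shiftwork at ZT3, for time in controls and in iWAT. With 1 library left out it ran from -0.12 to 0.17 for shiftwork at ZT3, from -0.05 to 0.26 for time in controls and from -0.05, without shiftwork replicate 3, to 0.50 in iWAT. Without the 3 iWAT libraries holding lymph node or skeletal muscle transcripts the iWAT median was -0.18. Shiftwork at ZT12 kept a positive median with 1 library left out (0.087 to 0.28), as did time under shiftwork (0.30 to 0.40).

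A further 54 genes of 5 lists on the same cells showed the setting of these values. In the list of 21 general fibroblast and progenitor genes, which includes 5 of the 10 genes, 14 were higher and 7 lower under shiftwork at ZT3 (median 0.32), 17 and 4 at ZT12 (median 0.28), and 20 and 1 in iWAT (median 0.62). None passed the test in any of them, with 5, 1 and 3 at an unadjusted p under 0.05, beside 18.8, 2.34 and 6.64 percent of all genes. The 16 interstitial progenitor genes had 9 higher and 7 lower at ZT3 (median 0.13), 12 and 4 at ZT12 (median 0.22), and 13 and 3 in iWAT (median 0.70), with 0 past the test in each. The 10 committed preadipocyte genes had 5 and 5 at ZT3 (median -0.030) and 3 and 7 at ZT12 (median -0.055). In iWAT they had 7 and 3 (median 0.29), again with 0 past the test. The 6 genes of CD142-positive cells had 3 and 3 at ZT3 (median 0.052) and at ZT12 (median -0.095). In iWAT those genes had 4 and 2 (median 0.15). The 12 ligand and partner genes had 6 and 6 at ZT3 (median 0.021) and 5 and 7 at ZT12 (median -0.067). Their iWAT counts were 7 and 5 (median 0.27), and both lists had 0 past the test. Of all genes tested in eWAT, 56.86 percent were higher under shiftwork at ZT3 and 49.05 percent at ZT12.

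The iWAT counts of the general, interstitial and committed preadipocyte lists turned when 3 libraries were left out together, not with 1 left out. With 1 library left out, 16 to 20 of the 21 general genes were higher (median 0.26 to 0.91). The interstitial genes then had 12 to 15 of 16 higher (median 0.29 to 1.19), and the committed preadipocyte genes 6 to 9 of 10 (median 0.086 to 0.56). Without the 3 libraries holding lymph node or skeletal muscle transcripts, which leaves 1 control, 8 of the 21 general genes were higher and 13 lower (median -0.095). For the interstitial genes it was 6 and 10 (median -0.19) and for the committed preadipocyte genes 2 and 8 (median -0.34). Over all genes tested in iWAT 51.9 percent were higher under shiftwork. Markers of other cells moved in the same comparison with all libraries in: 10 of 10 endothelial markers, 5 of 5 pericyte markers, 8 of 9 smooth muscle markers and 5 of 6 macrophage markers were higher, while 8 of 8 B cell and lymph node markers were lower (median -4.68). Their part in the list counts was not tested.

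Of those 54 genes, 4 passed edgeR's test in ZT12 against ZT3 in controls, all of them higher at ZT12, where 2.93 percent of all genes were called higher. DESeq2 called 16 of the 54 there, beside 14.3 percent of all genes. At an unadjusted p under 0.05 there were 24 in either tool, beside 22.4 percent of all genes by edgeR. In the other comparisons the reported tests called 0 of the 54, with 9 at an unadjusted p under 0.05 for shiftwork at ZT3, 4 at ZT12, 9 for time under shiftwork, 5 for the interaction and 4 in iWAT. The shares of all genes at that p are those given with the 10 genes, 18.8 percent at ZT3, 2.34 percent at ZT12, 16.3 percent for time under shiftwork, 10.1 percent for the interaction and 6.64 percent in iWAT. DESeq2 called 1 in the interaction, 3 in iWAT and 0 in the remaining 3 comparisons. Of all genes it called 187 of 15141 in the interaction and 451 of 16159 in iWAT. Abcg1, a cholesterol exporter listed with the CD142-positive cells, was 46.8, 52.5 and 51.7 CPM at ZT3 and 107.3, 122.7 and 103.6 CPM at ZT12, a log2 rise of 1.18 ± 0.21 with an adjusted p of 0.0218. Ggt5, a gamma-glutamyl transferase of committed preadipocytes, rose by 1.17 ± 0.22 with an adjusted p of 0.0251 by edgeR, from 12.6 to 23.9 CPM at ZT3 to 41.4 to 42.8 CPM at ZT12. Cxcl12, the ligand of the receptors CXCR4 and ACKR3, rose by 0.84 ± 0.18 with an adjusted p of 0.0387, from 149 to 222 CPM to 241 to 371 CPM. Ackr3, which scavenges CXCL12, rose by 0.77 ± 0.18 with an adjusted p of 0.0492, from 33.3 to 48.9 CPM to 59.4 to 78.5 CPM. In each of the 4 genes the 3 ZT12 controls lay above the 3 ZT3 controls. Markers of other cells also differed in this comparison. Higher at ZT12 were 6 of 6 macrophage markers (median 1.32), 5 of 5 pericyte markers (median 0.71) and 8 of 10 endothelial markers. Lower were 6 of 6 mesothelial, 8 of 9 smooth muscle and 7 of 8 B cell and lymph node markers. Of all genes tested, 48.7 percent were higher. The part of other cells in the 4 calls was not tested. These calls depended on single libraries: over 12 fits that left out 1 library each, Abcg1 was called in 7, Ggt5 in 5, Ackr3 in 2 and Cxcl12 in 1. In 5 other settings, which were other scalings, tools, filters, the replicate block and leaving out several libraries, Ggt5 was called in 5, Abcg1 in 4, and Ackr3 and Cxcl12 in 2 each. Without the 3 ZT3 libraries with vas deferens or spermatid transcripts, which leaves 1 ZT3 control, the log2 difference of Ackr3 was 0.38 (adjusted p of 0.173 by edgeR) and that of Ggt5 was 0.69 (adjusted p of 0.0175). In the same fit Abcg1 was 0.95 and Cxcl12 was 0.88, each with an adjusted p of 0.068.

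Per unit of gene length, the first 4 places among the 10 genes were the same in every eWAT group and the lower places were not. FPKM, the deposited value per kilobase of the gene model, lay below CPM per kilobase by 1.33 to 1.39 times, so it was scaled to another total than the assigned reads. It averaged 294 for Dcn, 131 for Dpt, 54.9 for Ly6a and 32.5 for Cd34 in ZT3 control, and the ranges of these 4 did not overlap. F3 at 24.0 and Anxa3 at 18.9 FPKM followed and overlapped with each other, and Pdgfra at 7.10, Pi16 at 6.64, Dpp4 at 5.19 and Icam1 at 4.36 FPKM each overlapped with the next. Dcn, Dpt, Ly6a and Cd34 held the first 4 places in this order in all 4 eWAT groups, although Ly6a and Cd34 overlapped in ZT12 shiftwork. Anxa3 stood before F3 in the other 3 eWAT groups, and Pi16 before Pdgfra in ZT12 shiftwork, each pair with overlapping ranges. In iWAT, the deposited RPKM equals CPM per kilobase, so its values are not on the scale of the eWAT FPKM. In iWAT controls RPKM averaged 652 for Dpt, 172 for Dcn, 118 for Ly6a and 40.5 for Pi16, and Dpp4 was lowest at 8.27.

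The 2 depots were set side by side without a test, because the tables were made separately. Dpt was the gene that set them apart most cleanly, with all 6 iWAT libraries (880 to 1431 CPM) above all 12 eWAT libraries (195 to 447 CPM). Ly6a was also higher in every iWAT library, but only just: the lowest iWAT value was 112.8 CPM and the highest eWAT value 111.8 CPM. CPM takes no account of gene model length, which for Ly6a was 0.998 kb in eWAT and 1.201 kb in iWAT. That length was 2.973 and 3.983 kb for Pi16 and 1.632 and 1.72 kb for Dpt. The other 8 genes overlapped. Between the medians of the ZT3 controls, iWAT exceeded eWAT by 4.28 times for Pi16, 4.12 times for Icam1, 3.84 times for Dpt and 2.06 times for Ly6a, and the Icam1 ratio rests on the 2 control libraries with lymph node transcripts. The ratio of Dpt to Dcn reads was between 0.192 and 0.445 in the eWAT libraries and between 0.925 and 1.62 in those of iWAT. Per length the ratio was between 0.246 and 0.570 in eWAT libraries and between 3.13 and 5.49 in iWAT libraries, a wider gap because the Dcn model is 2.095 kb long in the eWAT table and 5.829 kb in the iWAT table.

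One iWAT library, shiftwork replicate 3, stood apart from the other 5 in several of these genes. Its Ly6a level of 861 CPM was 5.55 times the next highest, its Pdgfra level of 282.2 CPM was 2.13 times, its Dpp4 level of 98.5 CPM was 1.85 times and its Cd34 level of 374.7 CPM was 1.46 times the next highest. Anxa3, at 98.3 CPM, was 1.20 times the next highest. Dpt, Dcn, Pi16, F3 and Icam1 did not share this, at 0.778, 0.837, 0.699, 0.790 and 0.417 times the highest of the other 5 libraries. The 11 interferon response genes were all highest in this library and summed to 1087 CPM, against 186 to 339 CPM in the other 5, and macrophage markers summed to 2346 CPM, against 851 to 1690 CPM. Their part in the levels of the 10 genes was not tested. The iWAT difference of Ly6a was 0.92 ± 0.75 on the log2 scale by limma, with an adjusted p of 0.730, and 0.01 without this library. That of Pdgfra was 0.42 ± 0.51 with it and -0.13 without it.

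For each of the 10 genes, the gene with the most similar pattern over the 12 eWAT libraries was sought by the root mean square difference of standardized log2 CPM, in units of SD, among 15141 genes. The closest match of any was Fstl1, a secreted follistatin-like glycoprotein that is also on the list of general fibroblast genes, to Cd34, at 0.290, and Fstl1 ran from 134 to 372 CPM. Other nearest genes were Vps53 for Dpt (0.368), Cyp2s1 for Dpp4 (0.388), A830082K12Rik for Anxa3 (0.407), Tll1 for Dcn (0.409) and Tmem173 for Ly6a (0.422). The matches were looser for Icam1 (B4galt5, 0.454), Pdgfra (Cxcl2, 0.460), Pi16 (Vipr1, 0.496) and F3 (Ap5m1, 0.505). Some of these genes had few reads: Cxcl2 ran from 0.232 to 1.44 CPM and A830082K12Rik from 0.538 to 1.98 CPM over the 12 libraries, where counting error is a large part of the level, and Vipr1 from 1.24 to 6.02 CPM. In none of the 10 cases was the nearest gene another of the 10, and the closest pair within them was Cd34 with Ly6a at 0.601. The libraries share depth and tissue makeup, so these distances are a description.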

How the data were processed

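RNA of 12 eWAT and 6 iWAT samples was sequenced as mRNA libraries, per the labels. STAR and HTSeq, with DESeq2, limma and edgeR, appear in the submitters' processing notes beside the genome builds GRCm38 and mm10, and no version or role is given there. The authors deposited whole-number read counts and log2 FPKM values for eWAT (all 24091 rows had a symbol, 0 without). For iWAT the deposited values called read counts are a normalized signal, reads divided by a size factor per library. Whole reads were recovered for 100.0 percent of 310956 values (tolerance 1e-06). The authors also gave iWAT RPKM and their own comparison of the iWAT groups with a p-value per gene, per the file headers. Strand use in counting is not given in the sources used here, so reads of antisense or overlapping genes may be mixed, and those shared with paralogs (Ly6a has close relatives) may be misassigned.

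eWAT counts were fitted with edgeR 4.0.16 (quasi-likelihood, robust, TMM, filterByExpr with minimum count 10) on all 12 libraries. iWAT was fitted with limma 3.58.1 (trend, robust) on log2(value + 1), so its fold changes are on that scale. edgeR and DESeq2 1.42.0 on the recovered reads, other scalings and filters, another pseudocount, a replicate block and leaving out libraries were alternatives, and overlap in unscaled CPM was one chosen after seeing the data. A floor of 3 reads stood for 0.0415 to 0.147 CPM at the depth of the eWAT libraries and 0.0539 to 0.105 CPM at that of the iWAT libraries (counting error only). Correlations of deviations across genes were compared for samples with the same replicate number. All 3 of a pair of groups were over 0.1 only between eWAT ZT12 control and ZT12 shiftwork (0.31, 0.13 and 0.20). In eWAT, 16 of 36 correlations between samples with different replicate numbers were also over 0.1, up to 0.46, so pairing cannot be read from these values. These replicate numbers come from the sample titles and are not the numbers of the sample descriptions. Fits were tested on simulated data with known changes in genes drawn at random, with the spread of the most variable genes capped. The eWAT fit, for time in controls, called 18 percent of genes changed by 2 times and 64 percent of those changed by 4 times. The iWAT fit called 2 and 52 percent. The 10 genes and the lists were chosen with earlier results of these data known. Named genes are the 10, up to 4 list genes per list and comparison past the test, and the nearest gene to each of the 10. Gene and promoter names were matched by symbol, and promoters came from RefSeq (GRCm38.p6).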

Additional observations from a re-analysis of the deposited data

How the results depend on the processing

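Of 320 fold changes of the 10 genes under settings other than leaving out 1 library, 298 kept their direction and side of the threshold, 20 changed sign and 2 became significant (Cd34 and Ly6a by DESeq2, above). Of 660 with 1 library left out, 607 were kept, 51 changed sign and 2 became significant. None of the 10 genes was called in the reported tests, so the kept values do not show stability of any call. The cause of these shifts was not tested.

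Counts of genes called over all genes moved most. DESeq2 called 629 for shiftwork at ZT3, 7 at ZT12, 2168 for ZT12 against ZT3 in controls (559 by edgeR), 288 under shiftwork, 187 for the interaction and 451 in iWAT, where the reported tests other than the time comparison in controls called 0. In that comparison no filter gave 320 and the replicate block 298. The replicate block changed no call of the 10 genes. Deviations of samples with the same replicate number correlated at -0.44 to 0.31 in eWAT, with 6 of 18 over 0.1, and at -0.18 to 0.02 in iWAT. Those of samples with different replicate numbers correlated at -0.44 to 0.46 in eWAT, with 16 of 36 over 0.1, and at -0.09 to 0.27 in iWAT. For shiftwork at ZT12 the replicate block called 0 genes, as did the fit without it. Whether equal replicate numbers pair samples of different groups is not stated in the labels. Without the 3 eWAT ZT3 libraries with vas deferens or spermatid transcripts, which leaves 1 ZT3 control assumed to vary like the other groups, the counts were 9 for shiftwork at ZT3, 75 for time under shiftwork and 7 for the interaction. With 1 library left out they ran from 0 to 403 for shiftwork at ZT3, from 1 to 2744 for time in controls, from 0 to 186 for the interaction and from 0 to 827 in iWAT. The 403 and the 186 came without ZT3 control replicate 2 and the 827 without iWAT control replicate 3. For time in controls the count was 173, 1208 and 3 without ZT3 control replicates 1, 2 and 3, 276 and 2744 without ZT3 shiftwork replicates 1 and 3, 1, 4 and 121 without ZT12 control replicates 1, 2 and 3, and 144 and 155 without ZT12 shiftwork replicates 2 and 3.

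Sign changes of log2 differences under other settings were as follows. For time in controls, Icam1 was -0.016 with DESeq2 size factors and -0.014 by DESeq2, and Pdgfra -0.0032 and -0.0034. Without the 3 ZT3 libraries Dpp4 was 0.37, Dpt -0.26, Pdgfra -0.080 and Pi16 0.10 in that comparison, Dpp4 was 0.34 for time under shiftwork and -0.030 for the interaction, where the replicate block gave -0.056. In iWAT, Dcn was -0.021 by edgeR, -0.014 by DESeq2 and -0.060 on RPKM, and Dpp4 was 0.176 by edgeR and 0.180 by DESeq2. RPKM moved the median of all iWAT genes to -0.12 from 0.02. Without the 3 iWAT libraries with lymph node or skeletal muscle transcripts, which leaves 1 control, Dcn was -0.72, Dpt -0.42, Icam1 0.73 and Pi16 -1.35.

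With 1 library left out, these differences ran across 0. For shiftwork at ZT3 they were Dcn -0.078 to 0.31, Dpp4 -0.35 to 0.37, Dpt -0.31 to 0.12, Icam1 -0.58 to 0.018, Pdgfra -0.29 to 0.23 and Pi16 -0.29 to 0.23. At ZT12 they were Anxa3 -0.13 to 0.16, Dpp4 -0.33 to 0.37, Dpt -0.019 to 0.30, F3 -0.35 to 0.022, Icam1 -0.026 to 0.28 and Ly6a -0.065 to 0.085. For time in controls they were Anxa3 -0.16 to 0.30, Dpp4 -0.26 to 0.12, Dpt -0.014 to 0.30, Icam1 -0.20 to 0.37, Pdgfra -0.23 to 0.27 and Pi16 -0.37 to 0.25, and under shiftwork Anxa3 -0.45 to 0.038 and Dpp4 -0.44 to 0.35. For the interaction they were Anxa3 -0.48 to 0.017, Cd34 -0.25 to 0.0086, Dcn -0.040 to 0.35 and Dpp4 -0.39 to 0.43. In iWAT they were Dcn -0.26 to 0.48, Dpp4 -0.75 to 0.55, Dpt -0.018 to 0.44 and Pdgfra -0.13 to 0.86. Cd34 stayed positive in all settings run for the 4 eWAT comparisons of 2 groups and in iWAT.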
